A study of Mus musculus with 8 samples.

Results

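The Myc and Max network was followed here as 10 mouse genes, Myc, Mycn, Mycl, Max, Mga, Mxd1, Mxd3, Mxd4, Mxi1 and Mnt, in embryonic stem cells (ESCs) with and without the zinc finger factor Zfp281. The genes were chosen by name, as the Myc proteins, their partner Max and the proteins that compete for Max. All probe sets that the platform annotation gives to these names were taken, which made 10 genes of 18193 and 27 probe sets of 34945 that name 1 gene. A gene was read on whichever of its probe sets had the highest mean across the 8 arrays, and the older name Mycl1 was counted as Mycl.

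Affymetrix whole-genome expression arrays were run on RNA from 8 mouse ESC lines, 1 array a line. The lines comprised 3 Zfp281 null lines (7, 3.34 and 3.38), 2 heterozygous lines (5 and 3.1) and 3 wild-type lines (3, 3.2 and 3.3). Null lines carry 2 and heterozygous lines 1 of an allele in which a floxed neomycin resistance cassette stands in place of the whole gene. The allele was made in CJ7 ESCs, and whether the cassette had been removed from these lines was not known from the labels. All lines came from blastocysts of heterozygous matings and were grown with leukemia inhibitory factor on embryonic fibroblast feeders, so that every genotype shares the feeder cells as a possible source of RNA. Each line is a separate derivation, and the number of arrays limits the precision. Values are log2 RMA values, in which a step of 1 is a 2-fold difference, and a probe set is called present where the array software's detection test found it above its mismatch probes.

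Myc proteins form pairs with Max through a helix-loop-helix and leucine zipper domain, and the pairs bind the E-box CACGTG and activate genes for growth, ribosome assembly and metabolism. Mxd proteins, Mxi1, Mnt and Mga pair with Max as well and repress at the same kind of site, the Mxd proteins, Mxi1 and Mnt through the Sin3 corepressor and Mga as part of the polycomb complex PRC1.6. In mouse ESCs, Myc and Mycn are known to sustain proliferation and self-renewal downstream of leukemia inhibitory factor, and Mga with its complex is known to hold germline genes silent.

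Promoter sequence is shown for the members whose start regions carry the E-box of the network or a G-rich word of the kind that Zfp281 is known to bind. RefSeq windows (build GRCm38.p6) from 250 bases before to 50 bases after the gene start were found for 9 of the 10 genes, as 11 promoters. The E-box CACGTG, which reads the same on both strands, lay in the windows of 3 genes, Max, Mnt and Mxd4, and in 7.15% of all 32851 promoters of this length. The word GGGGAGGGG, searched on both strands as itself or as CCCCTCCCC, lay in those of 3 other genes, Mga, Mxd3 and Mycl, and in 6.37% of all promoters. The 2 words do not overlap in any window shown, and a match describes letters only, not binding. In the lines below the capitals mark the word, and each window is written 5′ to 3′ on the gene's strand. The Max window (chr12:76962219-76962278, minus strand) and the Mnt window (chr11:74830774-74830833, plus strand) show E-boxes that begin 3 and 123 bases before the start. The Mga window (chr2:119897110-119897172, plus strand) and the Mxd3 window (chr13:55329772-55329834, minus strand) show G-rich words that begin 91 and 76 bases before it.
Max: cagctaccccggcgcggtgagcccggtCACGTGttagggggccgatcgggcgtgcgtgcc
Mnt: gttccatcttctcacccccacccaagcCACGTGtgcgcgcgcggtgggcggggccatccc
Mga: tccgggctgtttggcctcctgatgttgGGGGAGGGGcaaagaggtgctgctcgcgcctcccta
Mxd3: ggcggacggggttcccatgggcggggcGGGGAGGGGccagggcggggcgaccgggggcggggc

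The labels and libraries were checked first. Zfp281 read 3.64, 5.06 and 5.23 in null lines, 6.69 and 6.97 in heterozygous lines, and 6.88, 7.93 and 6.72 in wild-type lines, with every null line below every other line. It fell by 2.54 on the log2 scale in null against wild-type lines (SE 0.45, limma adjusted p = 0.0467), and a present call remained in 2 of 3 null lines although the allele lacks both exons; the source of that signal was not tested. The Zfp281 call held with the mean over probe sets, where the log2 fold change was -3.57 (SE 0.28, limma adjusted p = 0.0104). It also held among detected genes (limma adjusted p = 0.0251), with quantile normalization (0.0457) and with trended and robust eBayes (0.0327). The call was lost with signal values (limma adjusted p = 0.251) and with only the 2 genotypes compared (0.0601). It was lost with the litter as a block over 4 lines that come as litter pairs (limma adjusted p = 0.0710). A covariate for RNA length lost it as well, with a log2 fold change of -0.79. Leaving out any single line other than null line 3.38 also lost it (limma adjusted p from 0.0547 to 0.133). The ESC marker Utf1 was called present on no array, whereas the other 11 of 12 ESC markers were called present on every array. Between 28.4% and 35.3% of probe sets were called present per array. The difference between 3′ and 5′ probe sets of Gapdh and beta-actin, a measure of RNA length, was 3.30 ± 0.55 in null, 4.64 ± 0.22 in heterozygous and 4.61 ± 0.34 in wild-type lines (log2, SD, n = 3, 2 and 3). Linear values summed over 19 feeder fibroblast markers lay at 4896.9 to 5378.9 in null lines, 6461.5 to 7473.2 in heterozygous lines and 5780.6 to 8269.8 in wild-type lines. Of these markers Pdgfrb was called present in no line, and 0 of 19 passed limma's adjusted p. Neither quantity overlapped between null and wild-type lines. The part of the feeder cells in the results was not tested, and the 3′ to 5′ difference was entered as a covariate in an alternative fit.

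The network was carried on these arrays by a few of its members. The chosen probe sets of 4 genes, Mycn, Mga, Mxd3 and Mxi1, were called present on all 8 arrays. Mnt was called present on 5 arrays, Myc and Mxd1 on 1 array each, and Mycl, Max and Mxd4 on 0 of 8. Of the 27 probe sets, 6 were called present on every array and 14 on no array. A probe set without a present call gives only an upper bound, and no fold is given for a gene between genotypes that both lack it. Medians and counts over lists include such genes. In bulk samples such as these, fewer cells of a type and less RNA per cell cannot be told apart.

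**Figure D1:**
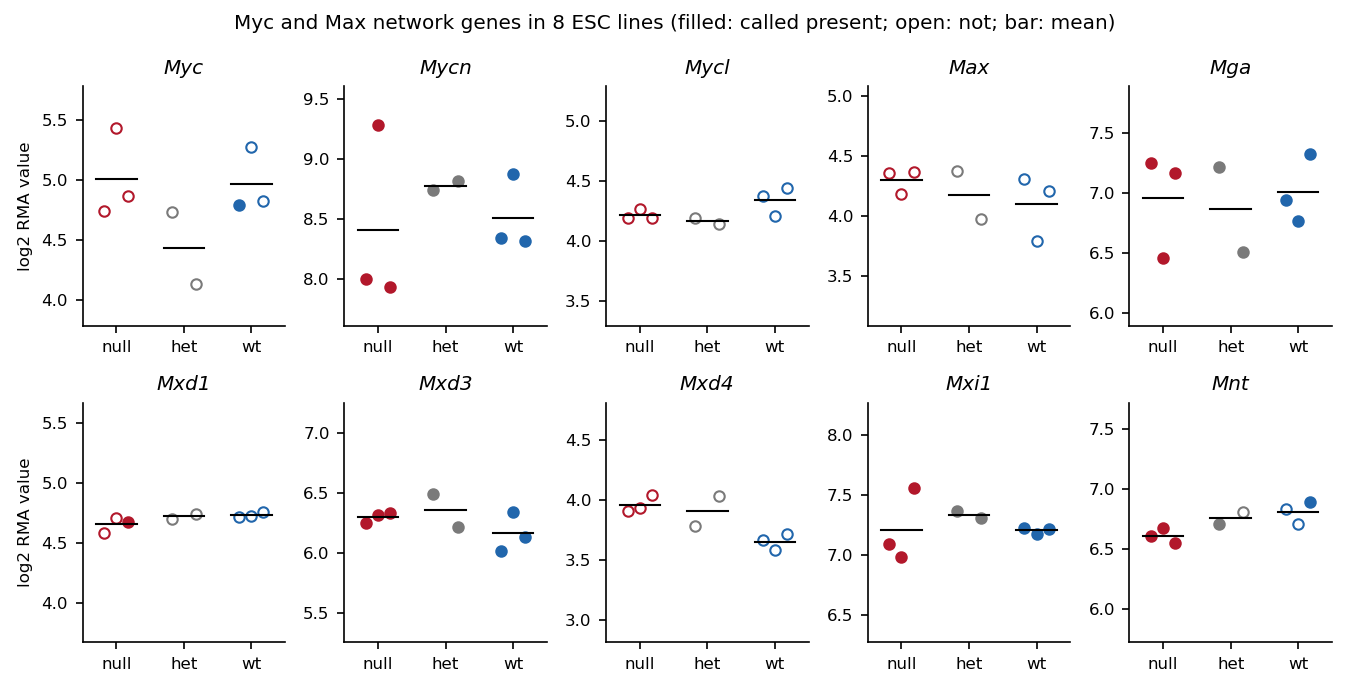
Log2 RMA value (y axis, a span of 2 units in each panel) of the 10 network genes in null, heterozygous (het) and wild-type (wt) ESC lines; each point is 1 line, filled where the probe set was called present, and bars are genotype means. Mycn, Mga, Mxd3 and Mxi1 are filled in all 8 lines, and the widest spread between lines of 1 genotype is that of Mycn in null lines, 7.94 to 9.28.

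No member was called as changed by Zfp281 genotype. With null against wild-type lines, 0 of 10 members passed limma's adjusted p of 0.05, at which 1.13% of all 18193 genes were called, and 0 of 10 passed 2-fold, a size reached by 2.47% of genes. At an unadjusted p under 0.05, 1 of 10 members passed, against 16.4% of all genes. The members' median log2 fold change was -0.02, beside -0.01 over all genes. The null lines lay wholly above or wholly below the wild-type lines for 3 of 10 members, which is read beside 22.4% of all genes. These members were Mxd1, Mxd4 and Mnt. Mxd1 had a present call in 1 null line only and Mxd4 in no line, so their readings do not order the genotypes. Heterozygous against wild-type lines gave 0 of 10 members at the adjusted p and 0 of 10 at an unadjusted p under 0.05 (limma), with 0% and 3.85% of all genes. In that comparison 0 of 10 members passed 2-fold (0.335% of genes) and 4 of 10 did not overlap between genotypes (17.3% of genes). These members were Myc, Mycl, Mxd4 and Mxi1. Myc, Mycl and Mxd4 had no present call in heterozygous lines, and their readings do not order the genotypes. Null against heterozygous lines gave 0 of 10 members at the adjusted p and 0 of 10 at an unadjusted p under 0.05 (limma), with 0% and 13.8% of all genes, 0 of 10 past 2-fold (2.42%) and 3 of 10 without overlap (27.9%). Without overlap between null and heterozygous lines were Myc, Mycl and Mnt, and Myc and Mycl had no present call in either genotype. The counts without overlap thus include undetected members, and the shares of all genes are not matched for detection. The comparisons share lines and are not independent of one another. Of the 27 probe sets, 0 passed limma's adjusted p in null against wild-type (0.919% of all 34945 probe sets), in heterozygous against wild-type (0.00286%) or in null against heterozygous lines (0.0114%). An unadjusted p under 0.05 was reached by 3 of 27 in null against wild-type lines (14.9% of all probe sets), 0 of 27 in heterozygous against wild-type lines (4.08%) and 2 of 27 in null against heterozygous lines (12.8%).

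The activators of the network are the Myc proteins, and of these Mycn was the one detected throughout. Mycn, a transcription factor of proliferating progenitors, read 8.00 in null line 7, 9.28 in null line 3.34 and 7.94 in null line 3.38, beside 8.74 and 8.82 in heterozygous lines, and beside 8.34, 8.87 and 8.32 in wild-type lines. Lines are given in this order for every gene, 7, 3.34 and 3.38 for null, 5 then 3.1 for heterozygous, and 3, 3.2 then 3.3 for wild-type. Null line 3.34 held the highest value of the 8 lines and the other null lines the lowest, so that the null lines enclosed all others. The mean was 8.41 ± 0.76 in null lines and 8.51 ± 0.31 in wild-type lines (SD, n = 3 each), a log2 fold change of -0.11 with a 95% interval of -0.88 to 0.67 (limma adjusted p = 0.939). For heterozygous against wild-type lines the log2 fold change of Mycn was 0.27, with an interval of -0.60 to 1.13 (limma adjusted p = 0.997). The interval of the null comparison holds neither a 2-fold increase nor a 2-fold decrease. The direction of Mycn in null against wild-type lines was not settled: the log2 fold change was 0.80 with the 3′ to 5′ difference as a covariate, 0.14 over probe sets and -0.54 once null line 3.34 was left out. Leaving out null line 7, null line 3.38 or wild-type line 3.2 gave 0.096, 0.13 and 0.075. Of the arrayed lines the study names 2 null and wild-type pairs from the same litters, 7 with 3 and 3.38 with 3.3, and within these pairs Mycn differed by -0.34 and -0.38 (null minus wild-type). With those 4 lines and the litter as a block the log2 fold change of Mycn was -0.36 (SE 0.14, limma adjusted p = 0.283). The other 2 Mycn probe sets were called present on no array. They enter the 0.14 over probe sets, so that value does not bear on the direction of Mycn.

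Myc itself, the founding oncoprotein of the family, was near the limit of detection. Its single probe set read 4.74, 5.43 and 4.86 in null lines, 4.74 and 4.14 in heterozygous lines, and 4.79, 5.27 and 4.83 in wild-type lines, and only wild-type line 3 had a present call. Null and wild-type lines overlapped, and both heterozygous lines lay below all wild-type lines. Mycl, the family member known from neural and lung tissue, was not called present in any line on any of its 3 probe sets, with values of 4.20 to 4.27 in null lines, 4.15 to 4.20 in heterozygous lines and 4.21 to 4.44 in wild-type lines. Such readings bound these transcripts from above and do not order the genotypes.

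Max, the shared partner of the other proteins in the list, is represented by 1 probe set here. It read 4.36, 4.19 and 4.37 in null lines, 4.38 and 3.98 in heterozygous lines, and 4.31, 3.80 and 4.21 in wild-type lines, with 0 present calls. The genotypes overlapped. The Max promoter window printed above holds an E-box next to the gene start, and the array gives no measured level to set beside it.

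Mga is the giant member of the network, which joins a T-box domain to the Max-binding domain. On its brightest probe set it had values of 7.25, 6.46 and 7.16 in null lines, 7.22 and 6.51 in heterozygous lines, and 6.94, 6.77 and 7.32 in wild-type lines. The genotypes overlapped, with a low line in both the null and the heterozygous lines. On this probe set the log2 fold change was -0.05 in null against wild-type lines (95% interval -0.66 to 0.56, limma adjusted p = 0.964) and -0.15 in heterozygous against wild-type lines (interval -0.82 to 0.53, limma adjusted p = 0.997).

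The second brightest Mga probe set, which was present on all arrays as well, gave other values. It read 7.56, 7.35 and 6.78 in null lines, 6.47 and 6.01 in heterozygous lines, and 6.58, 6.03 and 6.95 in wild-type lines. The null lines lay above both heterozygous lines, and overlapped with the wild-type lines through wild-type line 3.3. Over all probe sets the log2 fold change of this one was 0.71 in null against wild-type lines (interval 0.08 to 1.34, limma adjusted p = 0.270). In null against heterozygous lines it was 0.99 (interval 0.29 to 1.70, limma adjusted p = 0.202). The third brightest, again present on all arrays, had values of 4.14 to 4.48 in null lines, 3.95 to 4.75 in heterozygous lines and 4.40 to 4.55 in wild-type lines, with full overlap. Where in the Mga transcript each probe set lies was not known, and the 3 disagree on direction: the means were lower in null lines on 2 and higher on 1.

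**Figure D2:**
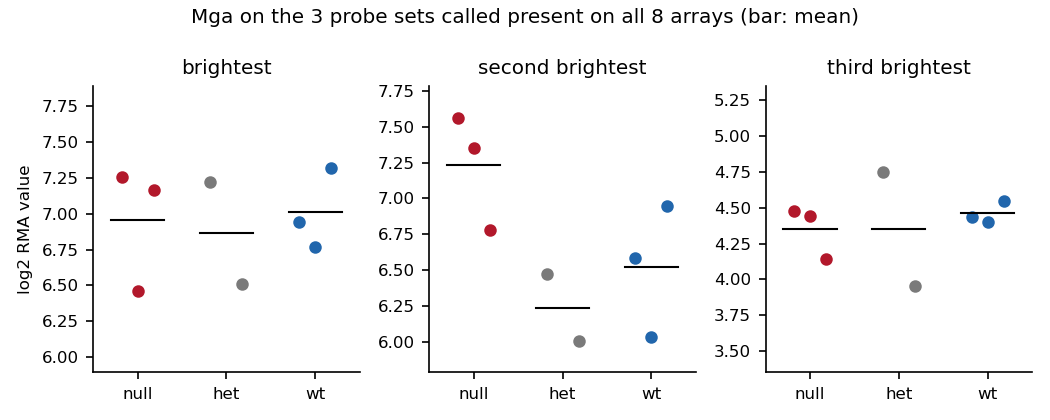
Log2 RMA value (y axis, a span of 2 units) of Mga in null, heterozygous (het) and wild-type (wt) lines on its 3 probe sets called present on all 8 arrays; each point is 1 line and bars are genotype means. Only the second brightest has a higher mean in null lines, 7.23, against 6.52 in wild-type lines.

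Among the Mxd proteins, which replace Myc on Max as cells leave the cycle or, for Mxd3, accompany S phase, Mxd3 was the one detected throughout. Its values were 6.25, 6.32 and 6.34 in null lines, 6.50 and 6.22 in heterozygous lines, and 6.02, 6.34 and 6.14 in wild-type lines. The lines of all genotypes overlapped within 0.482 log2 units. Mxd3 had a log2 fold change of 0.14 in null against wild-type lines (95% interval -0.15 to 0.42, limma adjusted p = 0.690) and 0.19 in heterozygous against wild-type lines (interval -0.12 to 0.51, limma adjusted p = 0.997).

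Mxd1 and Mxd4 were near background on their chosen probe sets. Mxd1 read 4.59, 4.71 and 4.67 in null lines, 4.70 and 4.74 in heterozygous lines, and 4.72, 4.73 and 4.76 in wild-type lines, with 1 present call, in null line 3.38. All null lines lay below all wild-type lines, with 4.71 as the highest null and 4.72 as the lowest wild-type value. Mxd4 read 3.91, 3.94 and 4.04 in null lines, 3.79 and 4.04 in heterozygous lines, and 3.67, 3.59 and 3.72 in wild-type lines, with 0 present calls on this probe set. Here all null and heterozygous lines lay above all wild-type lines. Mxd4 was the member that passed an unadjusted p under 0.05 in null against wild-type lines (limma adjusted p = 0.199), on readings that no array called present. Of its 4 probe sets, 2 had a present call on at least 1 array. All those calls fell in null lines, 3.34 and 3.38 on 1 probe set and 3.38 on the other.

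Mxi1, an Mxd relative that represses through Sin3, was steady in wild-type lines and scattered in null lines. It had values of 7.09, 6.98 and 7.56 in null lines, 7.36 and 7.31 in heterozygous lines, and 7.22, 7.17 and 7.22 in wild-type lines. The null lines enclosed all others, and both heterozygous lines lay above all wild-type lines. Mxi1 had a log2 fold change of 0.01 in null against wild-type lines (95% interval -0.34 to 0.35, limma adjusted p = 0.993) and 0.13 in heterozygous against wild-type lines (interval -0.25 to 0.52, limma adjusted p = 0.997). The other Mxi1 probe set had 0 present calls and read 4.32 to 4.61 in null lines, 4.15 to 4.25 in heterozygous lines and 3.88 to 4.08 in wild-type lines. Its 3 null readings were the highest of the 8 (limma adjusted p = 0.117), without a measured level.

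Mnt, the broadly expressed repressor that acts as the standing counterpart of Myc, had the lowest adjusted p among the members with a detected level. It read 6.61, 6.68 and 6.55 in null lines, 6.71 and 6.81 in heterozygous lines, and 6.83, 6.71 and 6.90 in wild-type lines. All null lines lay below all heterozygous and wild-type lines, yet the present calls ran the other way, with 3 of 3 in null lines, 1 of 2 in heterozygous lines and 1 of 3 in wild-type lines. Mnt had a log2 fold change of -0.20 in null against wild-type lines (95% interval -0.43 to 0.03, limma adjusted p = 0.387) and -0.05 in heterozygous against wild-type lines (interval -0.31 to 0.21, limma adjusted p = 0.997). From the array signal values in place of RMA it was 0.02 in null against wild-type lines.

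**Figure D3:**
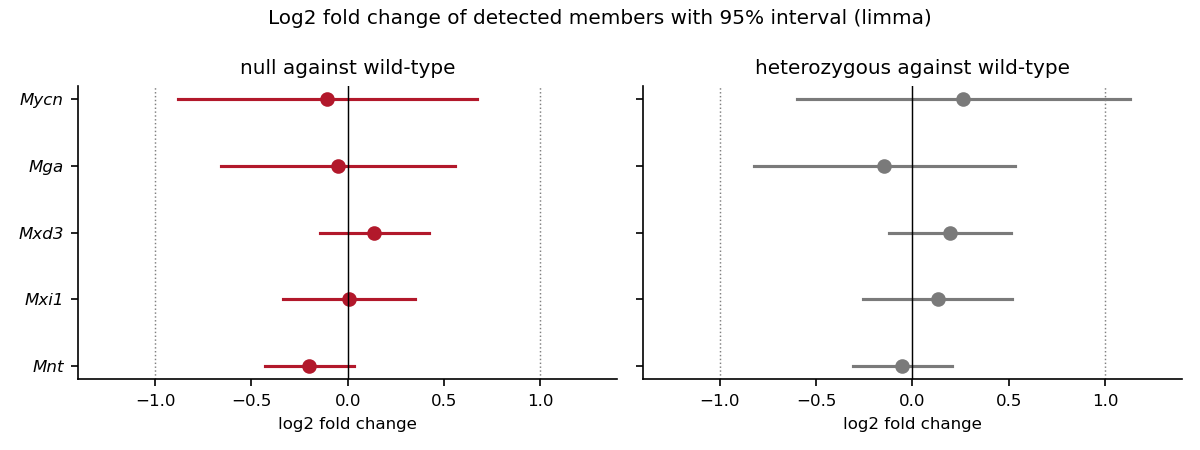
Log2 fold change (x axis) with its 95% interval from limma for the 5 members called present in at least 1 line of every genotype, in null against wild-type lines (left) and heterozygous against wild-type lines (right); dotted lines mark 2-fold. Every interval crosses 0, and the widest are those of Mycn, -0.88 to 0.67 and -0.60 to 1.13.

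The detected members differed in how far they varied among lines of 1 genotype. The within-genotype SD of Mycn was 0.519 log2 units, at the 92.7 percentile of the 5296 genes called present on all arrays, and that of Mga was 0.398, at the 81.9 percentile. Mxi1 had 0.195, at the 29.3 percentile, and Mxd3 had 0.139, at the 11.2 percentile. The pairs among these members had Pearson correlations over the 8 arrays from -0.776 for Mycn with Mga to 0.371 for Mxi1 with Mga; the arrays share genotype, feeders and RNA quality, and these values are descriptions. Among genes present on all arrays, those closest to Mycn were Cdipt (r = 0.946), an enzyme of phosphatidylinositol synthesis, Psmc2 (r = 0.937), a proteasome ATPase, and Sdad1 (r = 0.934). Closest to Mxd3 were the splicing factor Srsf6 (r = 0.960), Ecd (r = 0.938) and the DNA polymerase subunit Pole4 (r = 0.905). Closest to Mxi1 were Idh3a (r = 0.963), a subunit of mitochondrial isocitrate dehydrogenase, Chac2 (r = 0.954) and Isoc1 (r = 0.943). Closest to Mga were the mitochondrial flavoprotein Aifm1 (r = 0.910), 2610001J05Rik (r = 0.906) and Tmem86a (r = 0.901).

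The parallel Mlx arm and the Sin3 complex that the Mxd proteins recruit were likewise without calls. Of the Mlx arm, 3 of 3 genes were measured and 0 passed limma's adjusted p in null against wild-type lines, and the median log2 fold change was 0.03. Mlx, the partner that stands for Max in this arm, had 5.30 to 5.89 in null lines and 5.14 to 5.39 in wild-type lines, a log2 fold change of 0.33 that was 0.60 with signal values and 0.51 in the litter pairs. The glucose-responsive Mlxipl had 4.08 to 4.29 in null lines and 4.01 to 4.54 in wild-type lines, with 0 present calls. The median of the Mlx arm falls on this gene, so it does not order the genotypes. Of the Sin3 corepressor list, 11 of 13 genes were measured and 0 passed, with a median of -0.16. Rbbp7, a histone-binding subunit, read 11.30, 11.37 and 11.61 in null lines and 11.86, 11.99 and 11.96 in wild-type lines, a log2 fold change of -0.51 (SE 0.14, limma adjusted p = 0.107). The scaffold Sin3b read 9.66, 9.53 and 9.76 in null lines and 9.87, 9.89 and 10.28 in wild-type lines, a log2 fold change of -0.36 (SE 0.14, limma adjusted p = 0.228) that was 0.04 when averaged over its probe sets and -0.67 with the covariate. Null lines lay below wild-type lines for both. The higher mean lay in null lines for 3 of 11 genes of the list. Of these, Hdac1 had a log2 fold change of 0.54 (limma adjusted p = 0.338), with all null lines above all wild-type lines. Suds3 had 0.34 (limma adjusted p = 0.335), with overlap. Hdac1 and Suds3 were named after their values were seen.

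The machinery around Myc held differences past 2-fold, in Ruvbl1 and Ruvbl2, that did not pass the adjusted p. The list of Myc cofactors and turnover factors had 19 of 20 genes measured, of which 0 passed in either direction (limma). An unadjusted p under 0.05 was reached by 8 of 19 (16.4% of all genes). It was reached by 1983 of 7306 detected genes, those present in every line of a genotype. The higher mean lay in null lines for 14 of 19 (46.8% of all genes). Among those with the lower mean, Gsk3b had a log2 fold change of -0.37 (limma adjusted p = 0.176), with all null lines below all wild-type lines. Bptf had -0.39 (limma adjusted p = 0.437), with overlap. Gsk3b and Bptf were named after their values were seen. On all arrays 16 of 19 were present, as were 5296 of all 18193 genes, so the shares of all genes are not matched for detection. The list's median log2 fold change was 0.26, beside -0.01 over all genes. The list was drawn up with earlier results of these data known, so its counts describe it and are not independent evidence of a direction. Ruvbl2, an ATPase of chromatin remodelling complexes that binds Myc, read 10.82, 10.52 and 9.97 in null lines, 9.25 and 8.79 in heterozygous lines, and 9.21, 8.69 and 9.49 in wild-type lines. Every null line lay above every other line, and the log2 fold change in null against wild-type lines was 1.30 (SE 0.27, limma adjusted p = 0.0621), or 0.48 with the 3′ to 5′ difference as a covariate. Among detected genes alone it passed (limma adjusted p = 0.0347). Its partner Ruvbl1, named after its values were seen, read 8.52, 8.58 and 7.94 in null lines, 6.04 and 5.27 in heterozygous lines, and 6.33, 5.34 and 7.33 in wild-type lines. This was the widest difference in the list, a log2 fold change of 2.02 (SE 0.46, limma adjusted p = 0.0743), again with all null lines above all others. For Ruvbl1 the log2 fold change was 0.91 with the covariate, and among detected genes alone it passed (limma adjusted p = 0.0380). Ppp2r5a, a phosphatase subunit that acts on Myc turnover, read 7.06, 6.45 and 6.70 in null lines and 5.94, 5.97 and 5.56 in wild-type lines, a log2 fold change of 0.91 (SE 0.19, limma adjusted p = 0.0637). It was 0.57 with the covariate and 0.51 over probe sets, and Ppp2r5a passed among detected genes alone (limma adjusted p = 0.0401) and with the litter block (log2 fold change 1.13, limma adjusted p = 0.0458).

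The partners of Mga in PRC1.6 and the germline genes this complex is known to silence had differences in both directions. Of the partners, 9 of 10 were measured and 0 passed (limma), with a median log2 fold change of 0.12. Wdr5, a scaffold of chromatin complexes that is also on the cofactor list, read 8.78, 8.41 and 8.20 in null lines and 7.27, 7.98 and 7.78 in wild-type lines (log2 fold change 0.79, SE 0.21, limma adjusted p = 0.109). L3mbtl2, a chromatin compaction factor, read 7.57, 6.57 and 7.13 in null lines, of which 2 were called present, and 6.28, 6.11 and 6.30 in wild-type lines, of which 0 were. The fold between the null and wild-type means was 1.82 (95% interval 1.21 to 2.74, limma adjusted p = 0.142). This point estimate rests on wild-type readings, and a reading of null line 3.34, without a present call. The log2 difference was 0.47 with signal values and -0.10 once the 3′ to 5′ difference was a covariate. Yaf2, a subunit named after its values were seen, read 4.51, 4.33 and 5.78 in null lines and 5.79, 6.71 and 5.74 in wild-type lines, with overlap at null line 3.38 (log2 fold change -1.21, SE 0.39, limma adjusted p = 0.167). With the covariate the log2 fold change was 0.17 for Wdr5 and -0.72 for Yaf2, and Yaf2 had -0.62 in the litter pairs.
Of the germline genes, 14 of 15 were measured, 10 were called present on any array and 0 passed (limma), with a median of 0.15. The higher mean lay in null lines for 9 of 14 (46.8% of all genes). Among these were Mael (log2 fold change 1.23) and Stag3 (0.87), both with overlap. Some of the 9 had no present call in either genotype, and their readings do not order the genotypes. Mael and Stag3 were named after their values were seen. Past 2-fold lay 1 gene in each direction, Mael up and Sycp3 down, beside 2.47% of all genes past 2-fold in either direction. The 2 genes with the smallest p, Ddx4 and Sycp3, had the lower mean in null lines. Ddx4, an RNA helicase of germ cells, read 3.23, 3.20 and 3.57 in null lines and 4.18, 4.96 and 3.69 in wild-type lines (log2 fold change -0.95, SE 0.28, limma adjusted p = 0.141). Sycp3, a protein of the meiotic chromosome axis, read 4.21, 3.44 and 4.47 in null lines, 5.28 and 7.49 in heterozygous lines, and 5.54, 7.34 and 5.07 in wild-type lines. All null lines lay below all others for both genes. The log2 fold change of Sycp3 in null against wild-type lines was -1.94 (SE 0.69, limma adjusted p = 0.201), with a spread of 1.20 log2 units (SD, n = 3) among wild-type lines. With the covariate it was -1.18 for Sycp3 and -0.38 for Ddx4, and in the litter pairs it was -0.97 for Sycp3 and -0.54 for Ddx4.

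**Figure D4:**
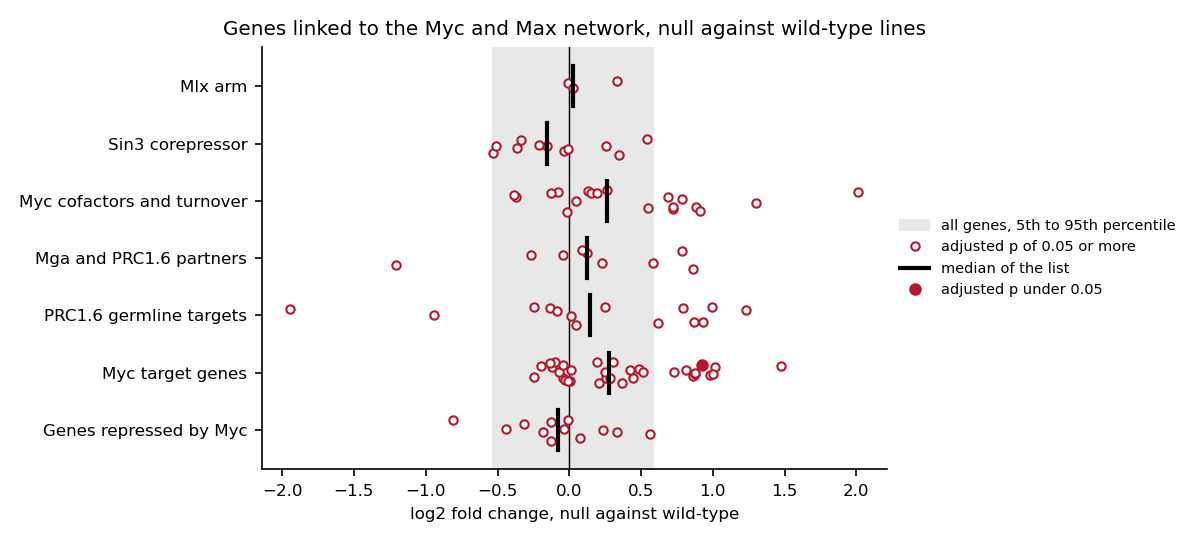
Log2 fold change in null against wild-type lines (x axis) of each measured gene in 7 lists linked to the network; open points did not pass limma's adjusted p of 0.05, the filled point passed, black bars are list medians and the grey band spans the 5th to 95th percentile of all genes, -0.53 to 0.59. The medians run from -0.16 for the Sin3 corepressor to 0.28 for Myc target genes.

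The known target genes of Myc had 34 of 36 measured, of which 1 rose, 0 fell and 33 did not pass limma's adjusted p in null against wild-type lines; 0.693% of all genes rose and 0.440% fell. The median log2 fold change was 0.28, beside -0.01 over all genes, and 24 of 34 had the higher mean in null lines, beside 46.8% of all genes. All null lines lay above all wild-type lines for 16 of 34 targets and below for 2, beside 11.1% and 11.2% of all genes. Of the targets 30 of 34 were present on all arrays, as were 5296 of all 18193 genes, so these shares are not matched for detection. In heterozygous against wild-type lines 0 of 34 passed (limma) and the median was -0.04. Of 12 ESC markers, 2 rose in null lines (Dppa5a and Dppa4), 10 did not pass (limma), and Dppa3 (-0.78) and Esrrb (-0.031) had the lower mean there. Their median log2 fold change was 0.63, with summed linear values of 18689.5 to 20570.0 in null lines and 9289.8 to 12060.0 in wild-type lines, and their part in the target genes' values was not tested. The list was drawn up with earlier results of these data known, so its counts describe it and are not independent evidence of a direction.

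Rcc1, the exchange factor that loads Ran in the nucleus, was the target that rose. It read 7.62, 7.46 and 7.15 in null lines, 6.43 and 6.19 in heterozygous lines, and 6.43, 6.34 and 6.69 in wild-type lines. It was called present in 3 of 3 null lines, 0 of 2 heterozygous lines and 1 of 3 wild-type lines, and every null line lay above every other line. Its log2 fold change was 0.92 in null against wild-type lines (SE 0.16, limma adjusted p = 0.0443). The call did not hold with signal values (limma adjusted p = 0.292), with only the 2 genotypes compared (0.0518) or with the 3′ to 5′ difference as a covariate, where the log2 fold change was 0.45. It was also lost with the litter block (limma adjusted p = 0.137), and without null line 7 or 3.34, wild-type line 3 or 3.2, or either heterozygous line, with limma adjusted p from 0.0518 to 0.171.

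The other targets are given as values that did not pass. Nop56, a core protein of box C/D small nucleolar particles, read 9.75, 9.99 and 9.42 in null lines and 8.73, 8.66 and 9.15 in wild-type lines (log2 fold change 0.87, SE 0.18, limma adjusted p = 0.0613). Nucleolin, Ncl, read 11.79, 11.03 and 11.08 in null lines, 9.24 and 9.58 in heterozygous lines, and 9.93, 9.21 and 10.35 in wild-type lines (null against wild-type log2 fold change 1.47, SE 0.31, limma adjusted p = 0.0638). Odc1, ornithine decarboxylase of polyamine synthesis, read 10.92, 10.82 and 10.65 in null lines and 9.95, 9.49 and 10.38 in wild-type lines (log2 fold change 0.86, SE 0.24, limma adjusted p = 0.115). All null lines lay above all wild-type lines for the 3 genes. With the covariate the log2 fold change was 0.65 for Nop56, 0.47 for Ncl and 0.22 for Odc1, over probe sets it was 0.75 for Ncl, and Nop56 and Ncl passed among detected genes alone (limma adjusted p = 0.0401 and 0.0347). Shmt2 (0.81) and Fbl (0.98) had lower adjusted p than Odc1, whereas for the nucleolar genes Npm1, Rrs1 and Nop58 the log2 fold change was -0.24, -0.074 and 0.0066. Of these, Ncl, Odc1, Shmt2, Fbl, Npm1, Rrs1 and Nop58 were named after their values were seen.

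Genes that Myc is known to repress had 12 of 12 measured and 0 passing in either direction (limma), with a median log2 fold change of -0.08. Cdkn1b, the p27 inhibitor of cyclin-dependent kinases, read 5.69, 6.67 and 6.36 in null lines, 6.37 and 6.45 in heterozygous lines, and 6.88, 6.95 and 7.31 in wild-type lines. Null and heterozygous lines all lay below wild-type lines, with a log2 fold change of -0.81 in null against wild-type lines (SE 0.24, limma adjusted p = 0.134). It was -0.21 with the covariate, -0.45 with signal values and -0.47 over probe sets. Gadd45a, a growth arrest and stress gene, read 7.19, 7.60 and 7.17 in null lines, 6.62 and 6.81 in heterozygous lines, and 6.68, 6.78 and 6.82 in wild-type lines. Here all null lines lay above all others, with a log2 fold change of 0.56 (SE 0.14, limma adjusted p = 0.0895).

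**Figure D5:**
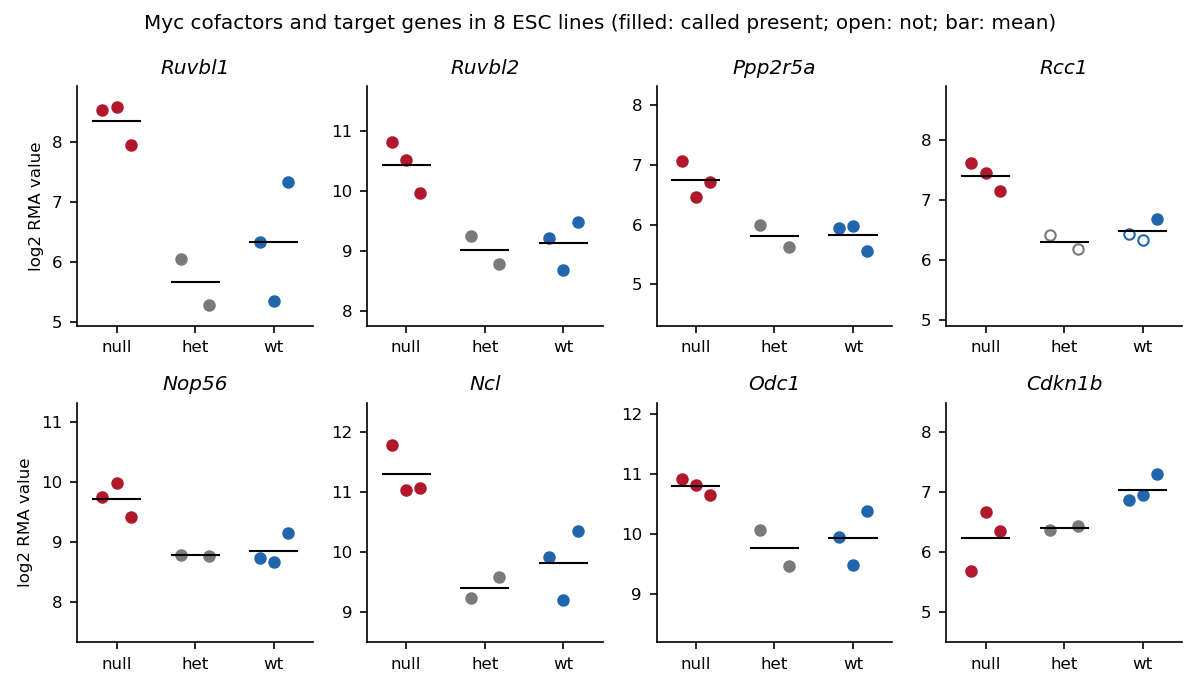
Log2 RMA value (y axis, a span of 4 units in each panel) of linked genes in null, heterozygous (het) and wild-type (wt) lines. Drawn are the Myc cofactors Ruvbl1 and Ruvbl2, the turnover factor Ppp2r5a, Myc target genes and the Myc-repressed gene Cdkn1b. Each point is 1 line, filled where called present, and bars are genotype means. The null lines lie above the wild-type lines for the first 7 genes and below them for Cdkn1b, and only Rcc1 passed limma's adjusted p. Ruvbl1, Ncl and Odc1 were named after their values were seen. Genes that went the other way are not drawn, such as the Myc-repressed Gadd45a (null lines above) and the target Npm1 (null lines below).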

How the data were processed

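RNA of 8 mouse ESC lines was measured on Affymetrix arrays, 1 for each line, and genotypes were taken from the sample labels. The authors deposited log2 values made by joint RMA normalization of the arrays, which were the main values here. The deposited array tables also give signal intensity values, used as an alternative as log2(signal + 1) after quantile normalization, and a detection p-value with a present, marginal or absent call, of which the calls were used. The versions of RMA and limma used upstream were not given in the sources used here. Over 8 of 8 arrays, each deposited column was closest to its own array. The 64 controls among 45101 probe sets were dropped, and the platform annotation names 1 gene for 34945, several for 932 and no listed gene for 9160. Each of 18193 genes was its probe set with the highest mean.

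Genotypes were compared with limma (version 3.58.1, under R 4.3.3; functions lmFit then eBayes, a mean for each genotype, all 8 arrays, Benjamini-Hochberg adjustment over all genes, threshold 0.05), and tables and plots were made with Python 3.11.15, pandas 2.3.3, numpy 2.4.6 and matplotlib 3.10.9. The fit was tested on simulated data. A reading without a present call was taken only as an upper bound on the level. The named genes were the 10 members, the genes of each linked list that passed in null against wild-type lines or else the 2 with the smallest p, the 3 genes most correlated with each member present on all arrays, Zfp281 and the defining markers. Ruvbl1, Gsk3b, Bptf, Hdac1, Suds3, Ncl, Odc1, Yaf2, Shmt2, Fbl, Npm1, Rrs1, Nop58, Mael, Stag3 and Smc1b were added after their values were seen. The members and lists were chosen with earlier results of these data known. Alternatives were the mean over probe sets, a filter to genes present in every line of a genotype, quantile normalization, signal values, trended and robust eBayes, only the 2 genotypes compared, the 3′ minus 5′ difference of Gapdh and beta-actin as a covariate, and leaving out each line. A litter block over 4 lines, and the same lines without it, were added after seeing the data. The paper names these lines as 2 litter pairs (null 7 with wild-type 3, null 3.38 with wild-type 3.3); deviations from the genotype means correlated at 0.097 and 0.038 over 18193 genes within the pairs. Promoter sequences came from a RefSeq table of build GRCm38.p6.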

Additional observations from a re-analysis of the deposited data

How the results depend on the processing

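Over 17 alternatives in null against wild-type lines and 15 in the other comparisons, including the 8 that leave out 1 line, 0 of 10 members passed limma's adjusted p, whose lowest value was 0.161 in null against wild-type, 0.565 in heterozygous against wild-type and 0.146 in null against heterozygous lines. Signal values put 3 members past 2-fold in null against heterozygous lines, Myc, Max and Mxd1, none of them called present in both genotypes. Several log2 fold changes turned direction, most of them small, but also L3mbtl2 (0.86), Sin3b (-0.36) and, in null against heterozygous lines, Mycn (-0.37). The cause was not tested. For Mycn, Mga and Mxi1 the mean over probe sets takes in probe sets called present on no array. In null against wild-type lines the mean over probe sets gave 0.14 for Mycn, 0.090 for Mga and 0.043 for Sin3b; signal values gave -0.14 for Mxd3, -0.10 for Mxi1, 0.020 for Mnt and -0.38 for Mlxipl; quantile normalization gave -0.038 for Mxi1; and the covariate gave 0.80 for Mycn and -0.10 for L3mbtl2. In null against heterozygous lines the mean over probe sets gave 0.082 for Mycn, 0.053 for Mxd3 and 0.054 for Mxi1, signal values gave -0.066 for Mga and 0.23 for Mnt, and the covariate gave 0.56 for Mycn and -0.87 for Mga. Leaving out 1 line gave -0.54 to 0.13 for Mycn, -0.17 to 0.12 for Mxi1, -0.20 to 0.20 for Mga and -0.059 to 0.21 for Mlxipl in null against wild-type lines. It gave -0.50 to 0.21 for Mga in heterozygous against wild-type lines, and -0.26 to 0.45 for Mga and -0.20 to 0.081 for Mxd3 in null against heterozygous lines.

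Counts of linked genes that passed in null against wild-type lines moved as well. Myc target genes numbered 2 with the mean over probe sets, 3 among detected genes, 0 with signal values or the covariate, and 0 to 4 with 1 line left out. Of the 3 among detected genes, Rcc1 met the filter only through the null lines, where it was higher. Genes of the Myc cofactor and turnover list numbered 4 among detected genes and 0 to 3 with 1 line left out. The Sin3 list had 1 with the mean over probe sets. Over all genes 206 of 18193 passed, against 442 of 7306 among detected genes and 0 with signal values or the covariate. Without null line 7 it was 3, without wild-type line 3 it was 2, and without wild-type line 3.2 it was 4. The 3′ to 5′ difference does not overlap between null and wild-type lines, so that the covariate and genotype are hard to separate, and 3 lines a genotype limit the precision. The 4 lines of the litter pairs, an alternative chosen after seeing the data, gave 0.078 for Mga and -0.085 for Mlxipl in null against wild-type lines, with or without the litter as a replicate block. With the block 178 genes passed. These held 0 of 10 members, 0 Myc target genes, 1 gene of the cofactor and turnover list (Ppp2r5a) and 1 germline gene (Smc1b). Without the block these counts were 198, 0, 0, 0 and 1, in the same order. Smc1b was named after its values were seen. No pairs are known for the other lines, so the block was not run in the other comparisons.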
